A study of Homo sapiens with 12 samples.

Results

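Cytosolic and mitochondrial heat shock genes were followed across 2 human melanoma lines with and without interferon-γ (IFN-γ). The 10 genes were taken by symbol from the count tables, which held 44700 genes. They are HSF1, HSP90AA1, HSP90AB1, HSPA8, HSPA1A, HSPA1B, HSPH1, DNAJB1, HSPD1 and HSPE1, and 9 of them had enough reads to be tested. HSPE1 did not and is described from transcript estimates. Total RNA was sequenced from MALME-3M and SK-MEL-5, established lines from melanoma metastases, labelled wild type. The 4 groups of 3 libraries were MALME-3M given IFN-γ at 200 ng/mL, untreated MALME-3M, SK-MEL-5 given IFN-γ at 150 ng/mL, and untreated SK-MEL-5, with an exposure of 24 h. Cells were plated in triplicate wells and IFN-γ was given at plating. Line, dose and culture medium differ together and cannot be told apart in any comparison between the lines.

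Heat shock proteins are chaperones: they bind unfolded or unstable proteins and help them to fold, to assemble or to be handed on for degradation. Heat shock factor 1, encoded by HSF1, is the transcription factor that raises their genes when unfolded protein accumulates, and it binds DNA at heat shock elements, which are repeated GAA units in alternating orientation. Some of the genes, such as HSPA8 and HSP90AB1, are transcribed at a high level in unstressed cells, whereas HSPA1A, HSPA1B and DNAJB1 are classical heat-inducible genes. Cancer cells, melanoma among them, are known to rely on HSP90 for the stability of many kinases.

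The DNA before the start sites shows which of the 10 genes carry the letters that HSF1 is known to read. Windows of 250 bases before the start were available for 9 of the genes (RefSeq, build GRCh38.p14). Where RefSeq gives several starts, the one nearest to the start of the most abundant coding transcript was taken. Both strands were searched for GAANNTTC and TTCNNGAA, the 2 ways in which neighbouring units can face each other, and matches may overlap. At least 1 of these patterns was found in 6 of the 9 windows, against 11.6% of 35116 promoters of the same length. The 3-unit form (GAANNTTCNNGAA or TTCNNGAANNTTC) was found in 3 windows, those of HSP90AA1, HSPA8 and HSPD1, against 0.441% of promoters. The more widely spaced TTCNNNGAA was in 0 of the 9 windows and in 6.57% of promoters. The 6 windows with a match are shown 5′ to 3′, since they hold the letters that these counts rest on. Capitals mark the 8-letter patterns, and a longer run of capitals is a set of overlapping patterns.
HSP90AA1 (chr14:102087045-102087294, minus strand): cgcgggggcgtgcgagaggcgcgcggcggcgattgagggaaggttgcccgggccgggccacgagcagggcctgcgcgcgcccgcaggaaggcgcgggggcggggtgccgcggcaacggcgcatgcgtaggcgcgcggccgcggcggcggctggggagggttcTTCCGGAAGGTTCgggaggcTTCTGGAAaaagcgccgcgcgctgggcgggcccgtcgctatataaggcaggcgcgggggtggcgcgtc
HSPA8 (chr11:123062137-123062386, minus strand): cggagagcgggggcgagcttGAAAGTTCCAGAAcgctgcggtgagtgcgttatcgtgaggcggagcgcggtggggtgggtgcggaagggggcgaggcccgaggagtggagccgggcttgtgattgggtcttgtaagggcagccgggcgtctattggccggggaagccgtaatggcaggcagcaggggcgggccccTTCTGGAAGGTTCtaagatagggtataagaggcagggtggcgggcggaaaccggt
HSPD1 (chr2:197499841-197500090, minus strand): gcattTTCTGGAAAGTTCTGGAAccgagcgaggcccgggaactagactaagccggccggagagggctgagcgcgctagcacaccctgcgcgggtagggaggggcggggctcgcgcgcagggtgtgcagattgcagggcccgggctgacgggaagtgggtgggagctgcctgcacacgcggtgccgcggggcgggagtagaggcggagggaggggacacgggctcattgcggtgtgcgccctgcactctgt
HSPA1A (chr6:31815293-31815542, plus strand): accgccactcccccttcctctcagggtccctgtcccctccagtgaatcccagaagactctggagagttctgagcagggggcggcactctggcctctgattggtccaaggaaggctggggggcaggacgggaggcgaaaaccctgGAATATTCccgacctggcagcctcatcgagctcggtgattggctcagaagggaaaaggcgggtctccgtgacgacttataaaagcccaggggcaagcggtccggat
HSPA1B (chr6:31827488-31827737, plus strand): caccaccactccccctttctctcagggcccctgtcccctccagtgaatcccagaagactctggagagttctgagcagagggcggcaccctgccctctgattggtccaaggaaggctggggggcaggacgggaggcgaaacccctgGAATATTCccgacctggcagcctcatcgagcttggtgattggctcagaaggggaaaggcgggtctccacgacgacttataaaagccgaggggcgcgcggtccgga
DNAJB1 (chr19:14518398-14518647, minus strand): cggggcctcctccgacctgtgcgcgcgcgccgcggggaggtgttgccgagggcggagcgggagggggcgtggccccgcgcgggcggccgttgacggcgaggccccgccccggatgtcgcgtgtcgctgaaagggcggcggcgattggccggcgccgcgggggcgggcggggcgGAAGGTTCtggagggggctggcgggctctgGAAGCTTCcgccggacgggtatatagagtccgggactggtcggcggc
In HSPA8 there were 2 separate runs of capitals, one at the far end of the window and one close to the RefSeq start. That start lay 804 bases from the start of the most abundant coding transcript. DNAJB1 had 2 single patterns near its start. HSPA1A and HSPA1B each had the same single pattern, in windows that were identical at 235 of 251 aligned positions (93.6%). The windows of HSP90AB1, HSPH1 and HSPE1 held no match, which says only that these letters are not in these 250 bases. The RefSeq start used for HSPH1 lay 461 bases from the start of its most abundant coding transcript. For HSP90AB1 another RefSeq start had a window that held the 3-unit form at 2 places. For HSPD1 the choice of start was close, since the one used lay 207 bases from the transcript start and the other, with no match in its window, 227 bases away. A match is a description of the letters and not a measured binding site.

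Library depth ranged over 15514412 to 22921184 counts assigned to genes. The 10 genes together took 1.33% to 1.38% of all gene counts in treated MALME-3M against 1.63% to 1.75% in untreated MALME-3M, and 1.73% to 1.84% in treated SK-MEL-5 against 1.90% to 2.19% in untreated SK-MEL-5. The ranges of treated and untreated libraries overlapped in neither line. Of the 8 melanocyte markers, all were above 0 in every group and summed to 5743 to 6426 counts per 1000000 gene counts (CPM). Immune markers summed to at most 1.24 CPM and epithelial or endothelial ones to at most 1.02 CPM. The 6 fibroblast markers summed to 15.3 to 17.7 CPM in treated and 18.2 to 19.5 CPM in untreated MALME-3M, and to 130 to 135 CPM in treated and 162 to 189 CPM in untreated SK-MEL-5. This sum was carried by LUM, at 8.55 ± 1.39 CPM in treated and 13.1 ± 1.7 CPM in untreated MALME-3M and 125 ± 3 CPM in treated and 161 ± 15 CPM in untreated SK-MEL-5 (SD, n = 3), and its part in the results was not tested. Other markers were mixed. DCN was also lower in MALME-3M, at 3.01 ± 0.30 CPM treated and 3.81 ± 1.33 CPM untreated. In SK-MEL-5 DCN was at 7.52 ± 0.99 CPM treated and 8.94 ± 0.62 CPM untreated. COL1A1 was lower too, at 0.0761 and 0.0374 CPM in treated and untreated MALME-3M against 0.828 and 0.718 CPM in SK-MEL-5. COL1A2 was higher in MALME-3M, at 3.74 ± 1.13 CPM treated and 1.52 ± 0.19 CPM untreated. In SK-MEL-5 COL1A2 was at 0.0886 ± 0.0507 CPM treated and 0 untreated. PDGFRB was at 1.12 ± 0.43 CPM in treated and 0.491 ± 0.364 CPM in untreated MALME-3M. MALAT1, a nuclear RNA, took 1.85% to 2.27% of gene counts in treated and 1.75% to 1.85% in untreated MALME-3M, and 1.36% to 1.40% in treated and 1.23% to 1.27% in untreated SK-MEL-5, and its part was likewise not tested. All 8 IFN-γ response genes set aside as a check rose in both lines.

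With IFN-γ, HSP90AA1 and HSPD1 fell in both lines, and HSP90AB1 fell in MALME-3M, while HSPA8 and HSPH1 fell in SK-MEL-5. HSF1 rose in MALME-3M. All called changes were small, between 12.5% and 22.4% in size. Of the 9 tested genes, 4 were called in MALME-3M (1 higher, 3 lower) and 4 in SK-MEL-5 (all lower), by edgeR's quasi-likelihood test at a Benjamini-Hochberg adjusted p below 0.05 over 15810 genes. The same test called 18.3% of all genes in MALME-3M (9.51% higher, 8.77% lower) and 13.0% in SK-MEL-5 (5.98% higher, 7.05% lower). The median log2 fold change of the 9 genes was -0.20 in MALME-3M, against 0.00 over all tested genes, and -0.19 in SK-MEL-5, against -0.03. Treated and untreated CPM did not overlap for 4 of the 9 genes in MALME-3M, 1 higher and 3 lower, and this held for 33.1% of all tested genes (16.6% higher, 16.5% lower). In SK-MEL-5 they did not overlap for 4 genes, all lower, against 29.1% of all genes (11.7% higher, 17.4% lower). Sums over many cells cannot tell fewer cells of a type from less RNA per cell.

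**Figure D1:**
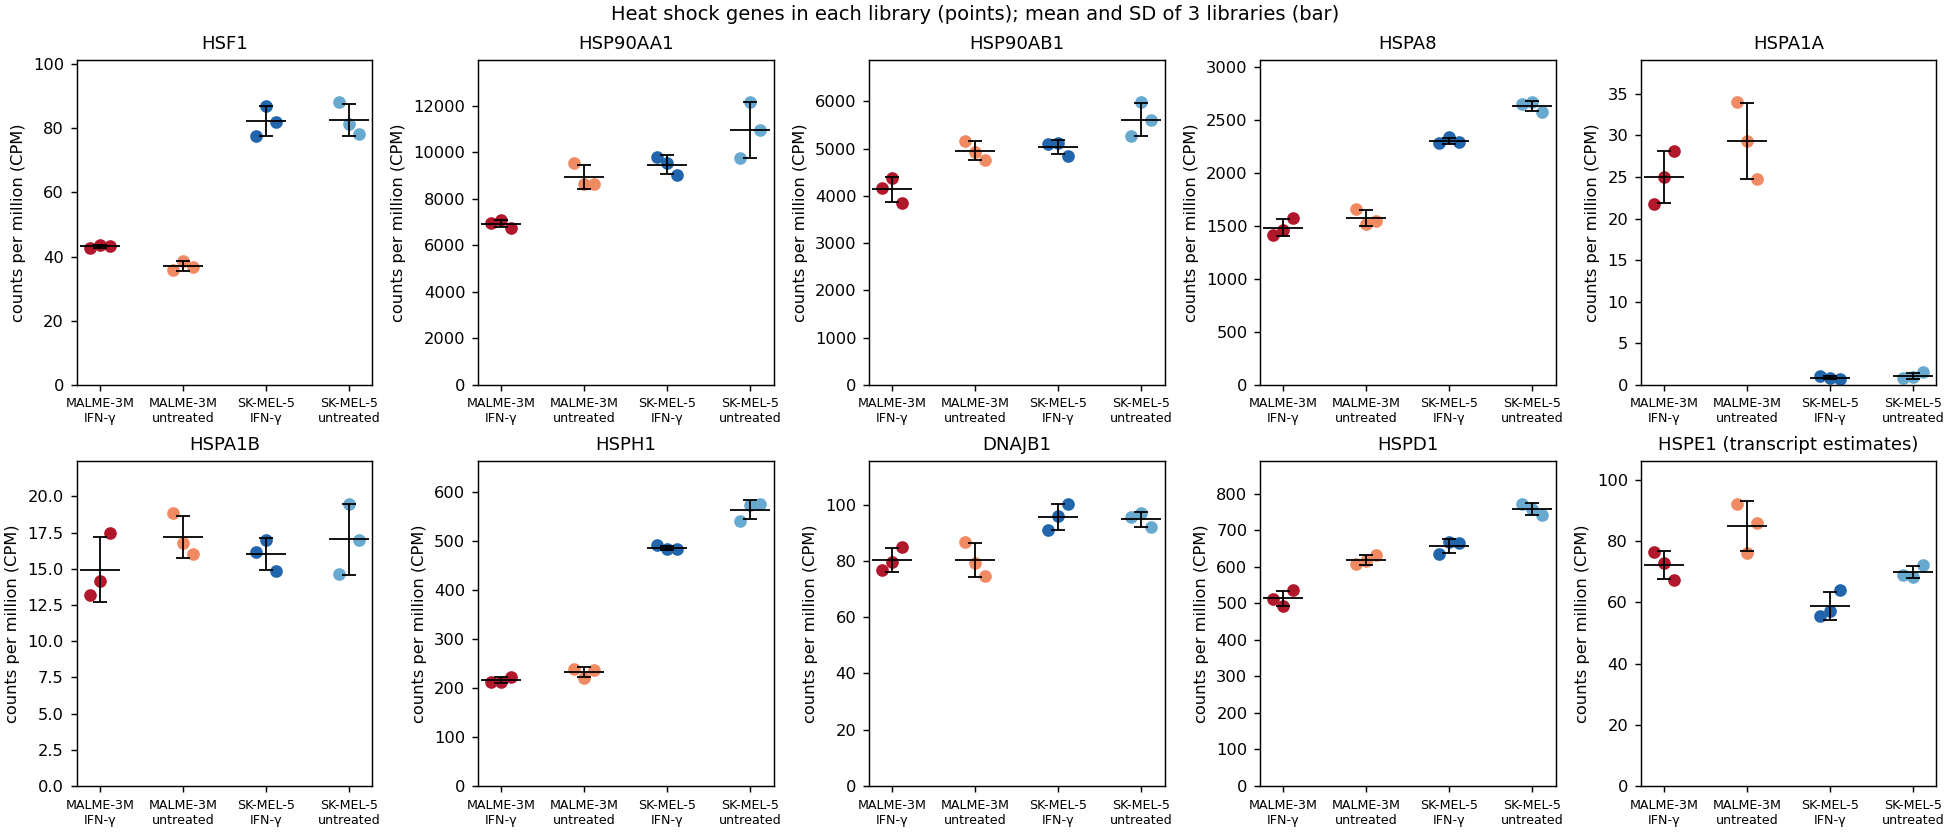
CPM (y axis, from 0) of each heat shock gene in the 3 libraries of each group (points), with the mean and SD (black). HSPE1 is drawn from transcript estimates. HSP90AA1, HSP90AB1 and HSPD1 in MALME-3M are lower in all 3 treated libraries than in any untreated one, and HSPA1A is near 0 in SK-MEL-5, at 0.7 to 1.5 CPM.

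HSF1, the regulator of the family, lies on chromosome 8. It had 42.7, 43.7 and 43.2 CPM in treated MALME-3M, against 35.7, 38.8 and 36.8 CPM in untreated MALME-3M. Every treated library was above every untreated one. The rise was 0.22 ± 0.06 on the log2 scale (SE; 3 libraries a group; edgeR adjusted p = 0.0161), or 16.4%. The call was lost in 5 of 18 alternatives. These were leaving out untreated library 1 (0.19, adjusted p = 0.0661) or 3 (0.21, adjusted p = 0.0544), leaving out treated library 2 (0.21, adjusted p = 0.0516) or 3 (0.20, adjusted p = 0.0605), and transcript estimates (0.22, adjusted p = 0.106). In SK-MEL-5 HSF1 had 77.8, 87.1 and 81.9 CPM with IFN-γ and 88.1, 81.3 and 78.4 CPM without. These ranges overlapped, and the log2 fold change was -0.00 ± 0.06 (adjusted p = 0.979). HSF1 ends within DGAT1, which is on the opposite strand, and the strand setting of the counting is not given in the sources used here.

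HSP90AA1 encodes HSP90α, the stress-responsive cytosolic HSP90, and lies on chromosome 14 (GRCh38, 102080738 to 102139699, minus strand). It had 6971, 7071 and 6755 CPM in treated MALME-3M, against 9531, 8630 and 8635 CPM in untreated MALME-3M. The groups did not overlap, and HSP90AA1 fell by 0.37 ± 0.06 on the log2 scale (SE; adjusted p = 0.000271), or 22.4%. In SK-MEL-5 it had 9810, 9545 and 9002 CPM with IFN-γ and 9727, 12134 and 10953 CPM without. Here the groups overlapped, with untreated library 1 below treated library 1. The fall of 0.21 ± 0.06 passed the test (adjusted p = 0.0285). Untreated library 2 carried much of it: without that library the log2 fold change was -0.13 (adjusted p = 0.172), and the call was lost in 7 of 18 alternatives. It was also lost without untreated library 3 (-0.21, adjusted p = 0.063), treated library 2 (-0.22, adjusted p = 0.0572), treated library 3 (-0.18, adjusted p = 0.124) or treated MALME-3M library 1 (-0.18, adjusted p = 0.0645). Untreated library 2 of SK-MEL-5 was also the deepest and had the lowest ratio of not uniquely aligned reads to gene counts, 7.47 where the other libraries reached 13.7, and the part of this in the result was not tested.

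HSP90AB1 encodes HSP90β, the constitutive cytosolic form (chromosome 6, 44246166 to 44253888, plus strand). It had 4173, 4389 and 3858 CPM in treated MALME-3M, against 5169, 4922 and 4768 CPM in untreated MALME-3M. The groups did not overlap, and it fell by 0.26 ± 0.05 (adjusted p = 0.00151). In SK-MEL-5 the values were 5107, 5122 and 4855 CPM with IFN-γ and 5267, 5979 and 5604 CPM without. All 3 treated libraries were the lower ones, yet the log2 fold change of -0.16 ± 0.05 missed the threshold (adjusted p = 0.0511). It was called in 7 of 18 alternatives, among them leaving out untreated library 1 (-0.21, adjusted p = 0.0131), untreated MALME-3M library 1 or 3 (adjusted p = 0.0285 and 0.0347) or treated MALME-3M library 2 (adjusted p = 0.0418), each of the last 3 at -0.16.

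HSPA8 encodes HSC70, the constitutive cytosolic HSP70 (chromosome 11, 123057489 to 123063230, minus strand). In SK-MEL-5 it had 2286, 2334 and 2287 CPM with IFN-γ, against 2650, 2664 and 2575 CPM without. The groups lay well apart and HSPA8 fell by 0.19 ± 0.05 (SE; adjusted p = 0.00704). The call was lost in 1 alternative, transcript estimates (-0.10, adjusted p = 0.211). In MALME-3M the values were 1415, 1463 and 1575 CPM with IFN-γ and 1660, 1517 and 1545 CPM without. These overlapped, with a log2 fold change of -0.08 ± 0.05 (adjusted p = 0.227). Treated library 3 was the high one, and without it the value was -0.15 (adjusted p = 0.0219).

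HSPH1 encodes HSP105, an HSP110 protein that serves HSP70 as a nucleotide exchange factor (chromosome 13, 31134974 to 31162388, minus strand). In SK-MEL-5 it had 491, 484 and 483 CPM with IFN-γ, against 542, 574 and 577 CPM without. The groups did not overlap and HSPH1 fell by 0.21 ± 0.05 (adjusted p = 0.00295). This call was lost in 1 alternative, transcript estimates (-0.30, adjusted p = 0.496). In MALME-3M it had 213, 212 and 223 CPM with IFN-γ and 239.7, 220.3 and 236.7 CPM without. The ranges overlapped, and the log2 fold change was -0.11 ± 0.05 (adjusted p = 0.128). It was called in 3 alternatives: without treated library 3 (-0.15, adjusted p = 0.0482), with upper-quartile scaling (-0.13, adjusted p = 0.0473) and with DESeq2's Wald test (-0.12, adjusted p = 0.0452).

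HSPD1 encodes HSP60, the barrel-shaped chaperonin of the mitochondrial matrix (chromosome 2, 197486581 to 197516737, minus strand). It had 510, 493 and 536 CPM in treated MALME-3M, against 606, 616 and 633 CPM in untreated MALME-3M. In SK-MEL-5 it had 634, 668 and 665 CPM with IFN-γ, against 773, 759 and 742 CPM without. In both lines every treated library was below every untreated one. The log2 fold change was -0.27 ± 0.04 in MALME-3M (adjusted p = 0.00016) and -0.21 ± 0.04 in SK-MEL-5 (adjusted p = 0.00231). The SK-MEL-5 call was lost in 1 alternative, transcript estimates (-0.21, adjusted p = 0.085).

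HSPE1 encodes HSP10, the lid of the HSP60 chamber, and starts head to head with HSPD1 on chromosome 2 (197499994 to 197503457, plus strand). Gene counts gave it 1 to 10 reads per library. The gene lies inside the HSPD1 region on the opposite strand and shares its strand with the read-through gene HSPE1-MOB4, and these counts were too few to be tested. The transcript estimates gave 453 to 741 reads per library. On that scale HSPE1 had 76.4, 73.0 and 67.4 CPM in treated and 92.3, 76.2 and 86.1 CPM in untreated MALME-3M, and 55.4, 57.1 and 63.9 CPM in treated and 69.0, 68.5 and 72.1 CPM in untreated SK-MEL-5. The highest treated library stood just above the lowest untreated one in MALME-3M, and the SK-MEL-5 groups did not overlap. Neither difference passed the test on transcript estimates: the log2 fold change was -0.23 ± 0.08 in MALME-3M (edgeR adjusted p = 0.149) and -0.25 ± 0.09 in SK-MEL-5 (adjusted p = 0.167). That test called 6.98% of 13497 genes in MALME-3M and 4.24% in SK-MEL-5.

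None of the 3 genes named above as classical heat-inducible ones, DNAJB1, HSPA1A and HSPA1B, was called with IFN-γ in either line. Over all genes 18.3% were called in MALME-3M and 13.0% in SK-MEL-5, and 3 genes are too few to set against these shares. HSP90AA1, also stress-responsive, was called lower in both lines on gene counts. DNAJB1 encodes HSP40, the J-domain partner that brings client proteins to HSP70 (chromosome 19, 14514770 to 14529770, minus strand). It overlaps TECR (14517085 to 14565980), which is on the opposite strand, so the unknown strand setting may bear on its counts too. DNAJB1 had 76.7, 79.5 and 85.0 CPM in treated and 86.6, 79.4 and 74.6 CPM in untreated MALME-3M. In SK-MEL-5 it had 91.2, 95.8 and 100.4 CPM in treated and 95.7, 97.0 and 91.9 CPM in untreated cells. The ranges overlapped in both lines, and both log2 fold changes, 0.01 ± 0.06 in MALME-3M and 0.01 ± 0.06 in SK-MEL-5, were far from the threshold (adjusted p = 0.978 and 0.938).

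HSPA1A and HSPA1B encode the inducible cytosolic HSP70 and lie close together on chromosome 6 (31815464 to 31817946 and 31827735 to 31830255, both on the plus strand). Their coding sequences are identical at 1919 of 1923 bases (99.8%), so reads inside them can be assigned to either gene or dropped, and the split between the genes is uncertain. After the coding part the aligned transcripts are identical at 51.9% of positions. HSPA1A had 21.8, 25.0 and 28.1 CPM in treated and 34.0, 29.3 and 24.8 CPM in untreated MALME-3M, which overlapped (log2 fold change -0.23 ± 0.14, adjusted p = 0.289). In SK-MEL-5 it had 21, 16 and 11 reads with IFN-γ and 13, 20 and 30 reads without, which also overlapped (-0.30 ± 0.29, adjusted p = 0.585). HSPA1B had 13.2, 14.1 and 17.5 CPM in treated and 18.8, 16.8 and 16.0 CPM in untreated MALME-3M, and 14.8 to 17.0 CPM in treated and 14.6 to 19.5 CPM in untreated SK-MEL-5. It was not called in MALME-3M (-0.20 ± 0.12, adjusted p = 0.308) or in SK-MEL-5 (-0.09 ± 0.12, adjusted p = 0.719). The sum of the 2 genes does not depend on the split, but it lacks any reads dropped for fitting both. On gene counts this sum was not called by edgeR in MALME-3M (-0.22 ± 0.11, adjusted p = 0.195) or in SK-MEL-5 (-0.11 ± 0.12, adjusted p = 0.659).

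**Figure D2:**
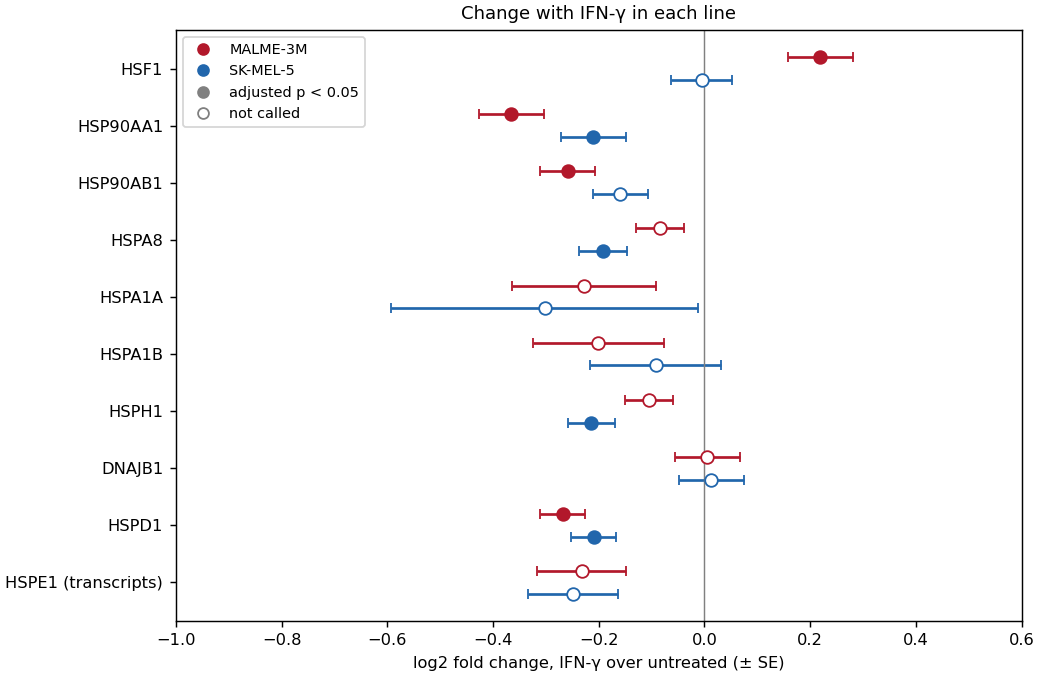
Log2 fold change with IFN-γ (x axis, ± SE) of each heat shock gene in MALME-3M (red, upper) and SK-MEL-5 (blue, lower); filled points passed the test. HSF1 in MALME-3M, at 0.22, is the single filled point right of 0.

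Whether the lines differed in their response was tested as the difference of the log2 fold changes, MALME-3M minus SK-MEL-5. None of the 9 genes was called, where edgeR called 4.46% of all genes (2.67% higher, 1.79% lower). The HSF1 difference was 0.22 ± 0.08 (adjusted p = 0.162), the HSP90AA1 difference -0.16 ± 0.09 (adjusted p = 0.401), and those of HSPA8 and HSPH1 0.11 ± 0.06 each (adjusted p = 0.431 and 0.428). At an unadjusted p below 0.05 the count was 1 of 9, HSF1. The share of all genes at that threshold was not computed, so this count does not show that HSF1 differed in its response. HSP90AA1 was called when no filter on low counts was used (-0.15, adjusted p = 0.00704). That fit called 569 of 34075 genes higher and 412 lower. A gene called in one line and not in the other is therefore not shown to differ between them.

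Between the lines, HSPA1A was higher in MALME-3M, and HSF1, HSPH1, HSPA8, HSPD1, DNAJB1 and both HSP90 genes were lower. Of the 9 genes, 1 was called higher and 7 lower in untreated cells, and 1 higher and 7 lower in treated cells. Such calls were common, since edgeR called 71.7% of all genes between untreated lines (34.5% higher, 37.2% lower) and 71.8% between treated lines (35.4% higher, 36.4% lower). The median log2 difference of the 9 genes was -0.29 in untreated cells, against -0.02 over all tested genes, and -0.35 in treated cells, against 0.00. CPM of the lines did not overlap for 8 of the 9 genes in either state, 1 higher and 7 lower, the exception being HSPA1B. Over all genes this held for 74.6% in treated cells (37.0% higher, 37.7% lower) and 73.8% in untreated cells (35.7% higher, 38.1% lower).

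HSPA1A showed the widest gap. It had 21.8 to 28.1 CPM (363 to 627 reads) in treated MALME-3M against 0.7 to 1.0 CPM (11 to 21 reads) in treated SK-MEL-5, and 24.8 to 34.0 CPM (476 to 565 reads) in untreated MALME-3M against 0.8 to 1.5 CPM (13 to 30 reads) in untreated SK-MEL-5. The fold was 28.2 in treated cells (log2 4.82 ± 0.20, edgeR adjusted p = 7.02e-14) and 26.8 in untreated cells (log2 4.75 ± 0.19, adjusted p = 4.44e-14). HSPA1B, whose protein is nearly the same, did not differ detectably, at -0.10 ± 0.12 in treated cells (adjusted p = 0.481) and 0.01 ± 0.12 in untreated cells (adjusted p = 0.957). In the transcript estimates, which give more reads to both genes in every library, HSPA1A had 883 to 1437 reads in treated MALME-3M and 13 to 42 in treated SK-MEL-5, with a log2 difference of 5.09 ± 0.30 (adjusted p = 7.08e-08). HSPA1B had 887 to 1358 reads in treated MALME-3M and 923 to 1222 reads in treated SK-MEL-5. Its log2 difference was not called (-0.17 ± 0.09 in treated and -0.23 ± 0.09 in untreated cells, adjusted p = 0.158 and 0.0526). The sum of the 2 genes was higher in MALME-3M under gene counts (1.24 ± 0.12 in treated and 1.35 ± 0.12 in untreated cells, adjusted p = 1.38e-08 and 3.43e-09) and under transcript estimates (0.85 ± 0.09 and 0.81 ± 0.09, adjusted p = 1.09e-05 and 1.6e-05). HSPA1L, a related HSP70 gene of the same cluster, was scarce in both lines, at 0.673 to 1.36 CPM in treated MALME-3M against 0.108 to 0.326 CPM in treated SK-MEL-5.

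**Figure D3:**
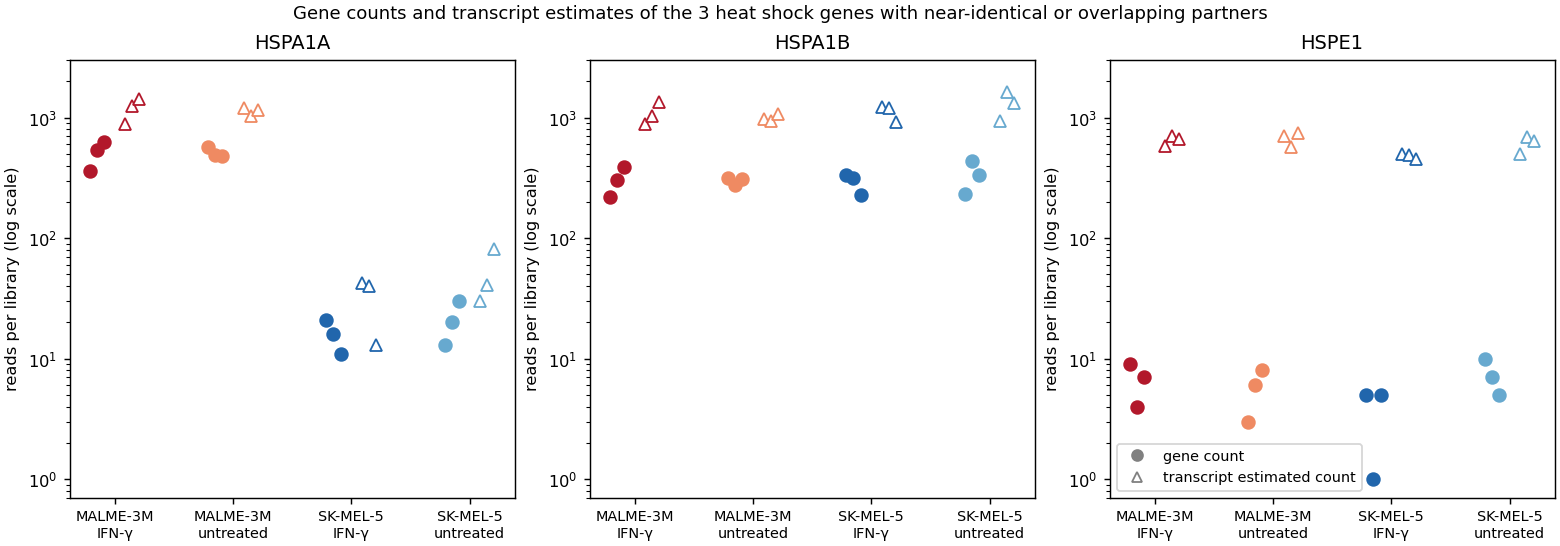
Reads per library (log y axis) of HSPA1A, HSPA1B and HSPE1 in each group, from gene counts (filled circles) and from transcript estimates (open triangles). The reads of HSPA1A separate the lines under both countings, those of HSPA1B overlap between the lines under both, and HSPE1 has 1 to 10 gene counts where 453 to 741 reads were estimated. Reads are not scaled for depth. As CPM on transcript estimates, HSPA1B did not overlap between untreated lines, at 124 to 127 in MALME-3M and 131 to 161 in SK-MEL-5.

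HSF1 had 42.7 to 43.7 CPM in treated MALME-3M against 77.8 to 87.1 CPM in treated SK-MEL-5, and 35.7 to 38.8 CPM in untreated MALME-3M against 78.4 to 88.1 CPM in untreated SK-MEL-5. It was thus 1.90-fold lower in treated (log2 -0.93 ± 0.06, adjusted p = 4.49e-11) and 2.23-fold lower in untreated MALME-3M (-1.15 ± 0.06, adjusted p = 2.11e-12). HSPH1 was 2.25-fold lower in treated (-1.17 ± 0.05) and 2.43-fold lower in untreated MALME-3M (-1.28 ± 0.05), with adjusted p of 2.71e-14 and 7.16e-15. The groups of the 2 lines did not overlap for either gene.

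HSPA8 was 1.55-fold lower in treated and 1.67-fold lower in untreated MALME-3M (adjusted p = 2.55e-10 and 2.43e-11). The other gaps were narrower: log2 differences in treated and untreated cells were -0.45 ± 0.06 and -0.29 ± 0.06 for HSP90AA1, -0.35 ± 0.04 and -0.29 ± 0.04 for HSPD1, -0.28 ± 0.05 and -0.18 ± 0.05 for HSP90AB1, and -0.25 ± 0.06 and -0.24 ± 0.06 for DNAJB1. All 8 of these values passed the test, with adjusted p of at most 0.00444. HSPE1 went the other way from its partner HSPD1: on transcript estimates it was higher in MALME-3M by 0.30 ± 0.09 in treated cells (adjusted p = 0.0113) and by 0.28 ± 0.08 in untreated cells (adjusted p = 0.0145), where 54.9% and 56.1% of genes were called.

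**Figure D4:**
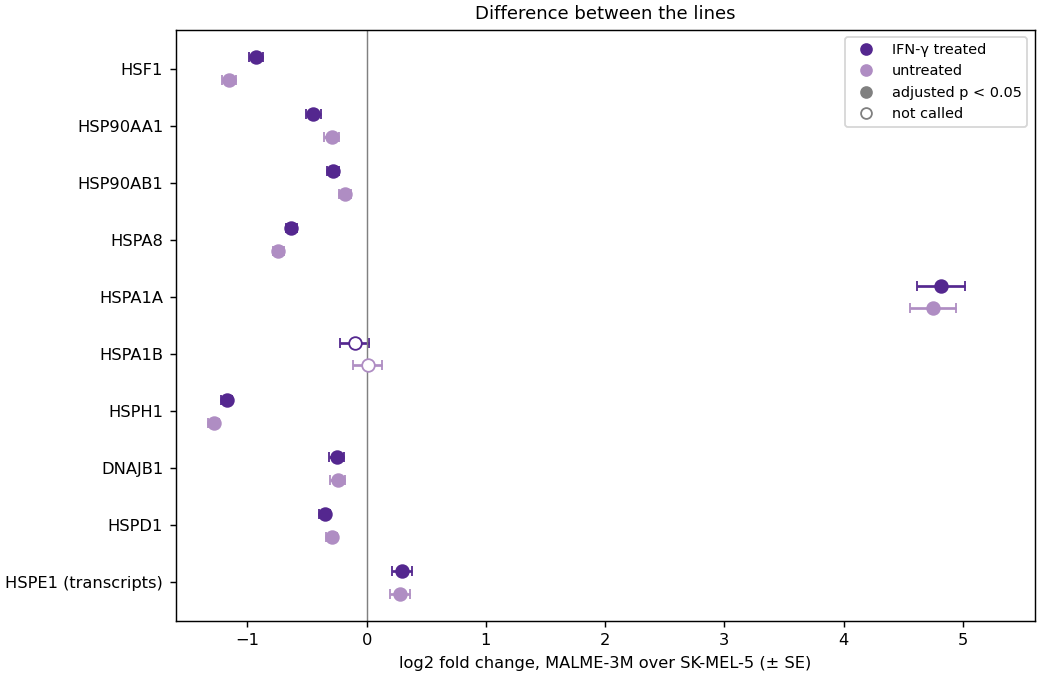
Log2 fold change of MALME-3M over SK-MEL-5 (x axis, ± SE) for each heat shock gene in IFN-γ treated (dark, upper) and untreated cells (light, lower); filled points passed the test. HSPA1A stands near 4.8 and the other called gene counts lie left of 0.

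Gene counts scaled to the length of the merged exons set the genes against one another. HSP90AB1 and HSP90AA1 stood at the top in all 4 groups, at 1389 ± 90 and 1321 ± 31 CPM per kb in treated MALME-3M (SD, n = 3), 1662 ± 68 and 1702 ± 99 in untreated MALME-3M, 1687 ± 50 and 1801 ± 78 in treated SK-MEL-5, and 1885 ± 120 and 2084 ± 229 in untreated SK-MEL-5. The ranges of these 2 genes overlapped in all 4 groups, most narrowly in treated SK-MEL-5 (1629 to 1719 and 1715 to 1869). HSPA8 followed at 306 to 542 CPM per kb as group means, then HSPD1 at 121 to 179, HSPH1 at 25.7 to 67.2 and DNAJB1 at 21.8 to 26.1. In MALME-3M HSPA1A (10.1 treated, 11.8 untreated) stood above HSF1 (8.14 and 6.99) and HSPA1B (5.92 and 6.82), and the ranges of HSF1 and HSPA1B overlapped in untreated cells. In SK-MEL-5 HSF1 (15.5 treated, 15.6 untreated) stood above HSPA1B (6.35 and 6.76), and HSPA1A was far below both (0.350 and 0.435).

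Part of this order was turned round in the transcript estimates, where the level per length is transcripts per 1000000 (TPM) summed to the gene. DNAJB1 then stood above HSPH1 in all 4 groups, at 127 to 147 against 14.6 to 27.8 TPM in treated MALME-3M and at 156 to 172 against 17.1 to 35.8 TPM in treated SK-MEL-5. HSPH1 held only 251 to 644 estimated reads per library where gene counts gave 3543 to 12884. For DNAJB1 these were 706 to 1134 and 1277 to 2179, and the part of this in the order was not tested. HSPA1B stood above HSF1 in MALME-3M, at 52.2 to 69.0 against 36.7 to 41.6 TPM in treated and 57.9 to 59.8 against 29.9 to 32.5 TPM in untreated cells. In SK-MEL-5 the ranges of HSPA1B and HSF1 overlapped in treated cells (61.5 to 69.2 and 68.2 to 76.6 TPM), and HSPA1B was the higher in untreated cells (68.0 to 83.4 and 62.8 to 65.8 TPM). HSPA8, at 3329 to 3428 TPM in treated SK-MEL-5, overlapped there with HSP90AB1 (3109 to 3442 TPM). The places of these genes in the order therefore depend on the counting, whereas HSPA1A was the lowest of the 10 genes in SK-MEL-5 on the TPM scale and the lowest of the 9 tested genes there on the other.

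Only 49.9% to 55.2% of all estimated counts per library belonged to transcripts tied to genes. HSP90AA1 held 28325 to 59611 estimated reads per library where gene counts gave 115995 to 272505, so its isoform shares cover only these estimated reads. For HSP90AA1 the transcript estimates were spread unevenly over its isoforms. A transcript of 1710 nt annotated as a target of nonsense-mediated decay, HSP90AA1-204, took 82.3% of the gene's estimated counts in treated and 84.8% in untreated MALME-3M, and 83.0% in treated and 77.1% in untreated SK-MEL-5. The main coding transcript, HSP90AA1-201 (3379 nt), took 16.4% and 13.8% in MALME-3M and 16.2% and 21.9% in SK-MEL-5, in the same order. In untreated SK-MEL-5 the estimate for HSP90AA1-204 was 20284 in library 1, against 46136 and 43547 in the other libraries, and the SE of this gene's log2 fold change on transcript estimates was 0.12. For HSPH1 the transcripts held 278 to 644 reads per SK-MEL-5 library where gene counts gave 7421 to 12884. With IFN-γ the test on transcript estimates called HSP90AB1 (-0.27 ± 0.06, adjusted p = 0.0184) and HSPD1 (-0.34 ± 0.06, adjusted p = 0.00438) in MALME-3M, and none of the 10 genes in SK-MEL-5. Over all 13497 genes it called 6.98% in MALME-3M and 4.24% in SK-MEL-5. HSP90AA1 was at -0.40 ± 0.12 in MALME-3M (adjusted p = 0.0785) and -0.04 ± 0.12 in SK-MEL-5 (adjusted p = 0.935). HSPD1 was at -0.21 ± 0.06 (adjusted p = 0.085), HSPA8 at -0.10 ± 0.04 (adjusted p = 0.211) and HSPH1 at -0.30 ± 0.18 (adjusted p = 0.496) in SK-MEL-5. Between the untreated lines HSP90AA1 (-0.10 ± 0.12, adjusted p = 0.493) and HSP90AB1 (-0.13 ± 0.06, adjusted p = 0.0737) were not called on this scale.

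The partners of these chaperones were described from lists of related genes. In the TRiC chaperonin, which folds actin and tubulin, and its feeder prefoldin, 5 of 14 genes fell in MALME-3M and 6 in SK-MEL-5, where 8.77% and 7.05% of all genes were called lower, and 0 rose in either line. CCT5 fell by 0.16 ± 0.04 in MALME-3M and by 0.18 ± 0.04 in SK-MEL-5 (edgeR adjusted p = 0.0113 and 0.00714), and TCP1 by 0.16 ± 0.05 and 0.17 ± 0.05 (adjusted p = 0.0363 and 0.032). On transcript estimates TCP1 was not called in either line, at 0.02 in MALME-3M (adjusted p = 0.925) and -0.14 in SK-MEL-5 (adjusted p = 0.338). PFDN1, a prefoldin subunit, fell in SK-MEL-5 by 0.26 ± 0.07 (adjusted p = 0.0137). The list medians were -0.07 in MALME-3M and -0.14 in SK-MEL-5, against 0.00 and -0.03 over all genes. On transcript estimates 1 of these genes was called in MALME-3M and 0 in SK-MEL-5, against 6.98% and 4.24% of all genes.

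Among 14 tested HSP90 co-chaperones, 3 fell and 0 rose in each line, against 8.77% of all genes called lower in MALME-3M and 7.05% in SK-MEL-5. In MALME-3M these were PTGES3 (p23), which stabilises the closed HSP90 dimer, at -0.21 ± 0.05 (adjusted p = 0.00399), SUGT1 and TOMM70. In SK-MEL-5 they were CHORDC1 at -0.24 ± 0.06 (adjusted p = 0.0114), PPP5C and TOMM70. Of 11 other HSP70 and HSP110 genes, 2 fell and 1 rose in MALME-3M and 0 were called in SK-MEL-5, where 18.3% and 13.0% of all genes were called. Those that fell were HSPA9, the mitochondrial HSP70 (-0.20 ± 0.04, adjusted p = 0.002), and HSPA4, an HSP110 (-0.19 ± 0.05, adjusted p = 0.00644). HSPA5, the HSP70 of the endoplasmic reticulum, rose (0.16 ± 0.05, adjusted p = 0.0288).

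Of 14 endoplasmic reticulum chaperones, 4 rose and 2 fell in MALME-3M, against 9.51% of all genes higher and 8.77% lower, and 2 rose and 1 fell in SK-MEL-5, against 5.98% higher and 7.05% lower. The list medians were 0.07 and 0.05, against 0.00 and -0.03 over all genes. CALR, the lectin chaperone calreticulin that also serves the loading of MHC class I, averaged 1722 ± 70 CPM in treated and 1454 ± 55 CPM in untreated SK-MEL-5 (SD, n = 3) and rose by 0.24 ± 0.05 (adjusted p = 0.00176). PDIA6, a disulfide isomerase, rose there by 0.24 ± 0.05 (adjusted p = 0.00106). CANX, calnexin, fell in MALME-3M by 0.21 ± 0.04 (adjusted p = 0.0011).

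The 22 J-domain proteins other than DNAJB1 were split, with 4 higher and 4 lower in treated MALME-3M, and 1 higher and 1 lower in treated SK-MEL-5, where 18.3% and 13.0% of all genes were called in either direction. DNAJA1, an HSP70 partner in the cytosol, averaged 342 ± 15 CPM in treated and 287 ± 10 CPM in untreated MALME-3M, and 537 ± 20 CPM in treated and 466 ± 18 CPM in untreated SK-MEL-5. It rose in both lines, by 0.25 ± 0.05 in MALME-3M and 0.20 ± 0.05 in SK-MEL-5 (adjusted p = 0.00101 and 0.00777). Of 10 nucleotide exchange factors 1 was called in MALME-3M and 2 in SK-MEL-5, against the same shares. BAG1 fell in both lines (-0.17 ± 0.06 in MALME-3M and -0.24 ± 0.05 in SK-MEL-5, adjusted p = 0.043 and 0.00639), and BAG3 fell in SK-MEL-5 (-0.18 ± 0.06, adjusted p = 0.0452).

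Of 12 genes of mitochondrial protein quality control, 3 fell and 1 rose in MALME-3M and 0 were called in SK-MEL-5, where 18.3% and 13.0% of all genes were called. AFG3L2, an inner membrane protease, fell in MALME-3M by 0.34 ± 0.08 (adjusted p = 0.00314). Of 4 tested small heat shock proteins only CRYAB was called, and only in MALME-3M (-1.78 ± 0.48, adjusted p = 0.0126). It was scarce there, at 0.521 ± 0.414 CPM in treated and 1.75 ± 0.11 CPM in untreated cells. The treated libraries were uneven, at 0.0449, 0.721 and 0.796 CPM, against 1.62 to 1.82 CPM in untreated ones. In the HSF family and its regulators, HSF2 fell in MALME-3M (-0.41 ± 0.12, adjusted p = 0.0244). Neither of the other HSP90 genes, TRAP1 of the mitochondria and HSP90B1 of the endoplasmic reticulum, was called with IFN-γ.

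A list of 21 other genes known to be raised by heat through HSF1 gave no single direction in MALME-3M, where 3 rose and 3 fell (median -0.01) and 9.51% of all genes were higher and 8.77% lower. In SK-MEL-5 1 rose and 6 fell (median -0.14), against 5.98% of all genes higher and 7.05% lower. SERPINH1, the collagen chaperone HSP47, fell in SK-MEL-5 by 0.39 ± 0.09 (adjusted p = 0.00604), and CACYBP fell in both lines (-0.28 ± 0.07 in MALME-3M and -0.24 ± 0.06 in SK-MEL-5, adjusted p = 0.00538 and 0.0196). On transcript estimates 1 rose and 0 fell in each line, where 6.98% of all genes were called in MALME-3M and 4.24% in SK-MEL-5. The 14 immediate early genes respond to many kinds of stress. On gene counts 8 rose and 0 fell in MALME-3M (median 0.35), against 9.51% of all genes higher and 8.77% lower. In SK-MEL-5 2 rose and 2 fell (median -0.06), against 5.98% of all genes higher and 7.05% lower. The lists share some genes with one another.

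**Figure D5:**
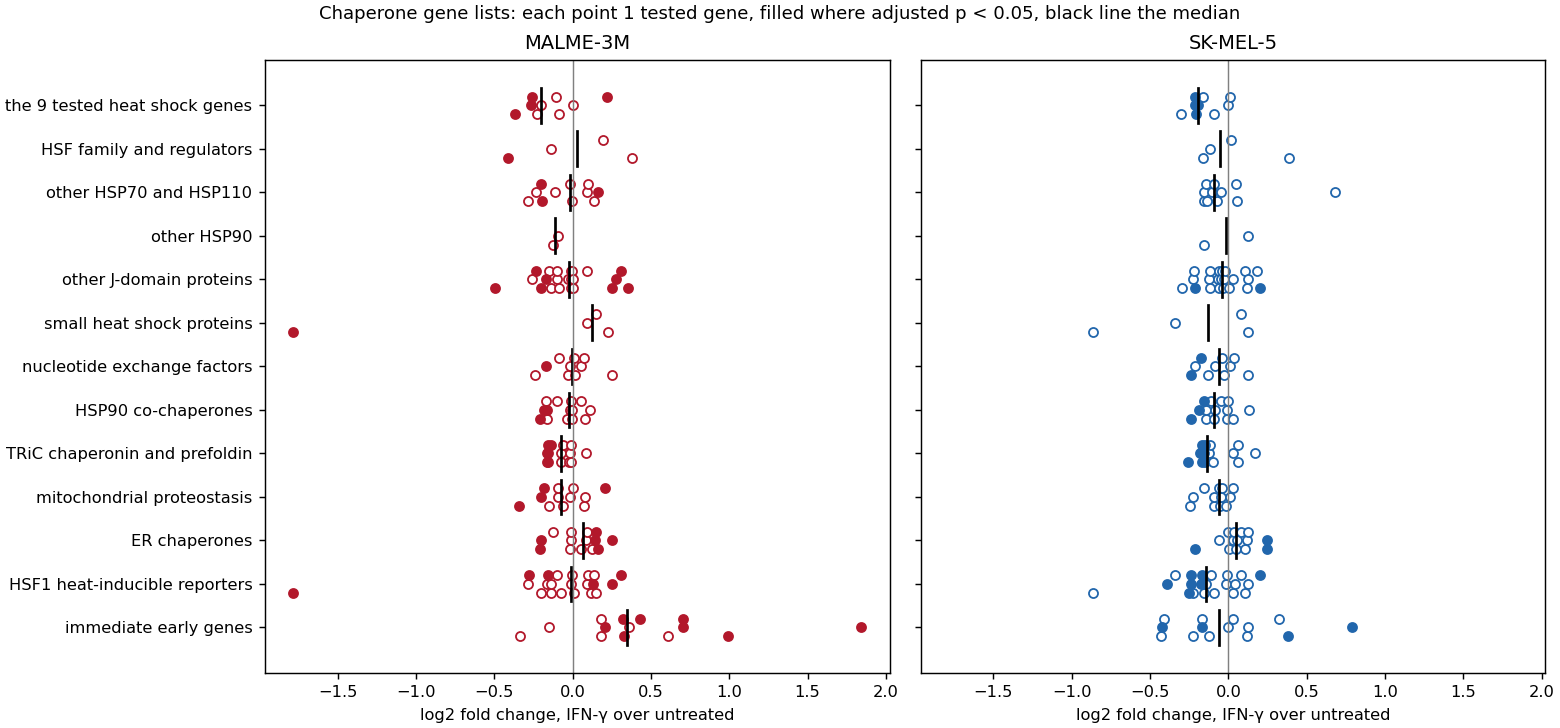
Log2 fold change with IFN-γ (x axis) of each tested gene of the chaperone lists in MALME-3M (left) and SK-MEL-5 (right); filled points passed the test and black lines are list medians. The medians of the 9 tested heat shock genes (-0.20 and -0.19) lie left of 0 and those of the endoplasmic reticulum chaperones (0.07 and 0.05) right of it.

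Between the lines, of the 14 TRiC and prefoldin genes 0 were higher and 11 lower in treated MALME-3M, and 1 higher and 11 lower in untreated MALME-3M, where 36.4% and 37.2% of all genes were called lower. CCT5 averaged 362 ± 9 CPM in treated MALME-3M against 934 ± 39 CPM in treated SK-MEL-5, and 405 ± 6 CPM in untreated MALME-3M against 1057 ± 25 CPM in untreated SK-MEL-5 (log2 -1.37 ± 0.04 and -1.38 ± 0.04). CHORDC1, an HSP90 co-chaperone, was 1.70 lower on the log2 scale in treated and 1.83 lower in untreated MALME-3M.

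DNAJA4, a J-domain protein, stood out in the other direction. It averaged 326 ± 10 CPM in treated MALME-3M against 5.23 ± 1.29 CPM in treated SK-MEL-5, and 264 ± 8 CPM in untreated MALME-3M against 4.83 ± 1.25 CPM in untreated SK-MEL-5 (log2 5.94 ± 0.13 and 5.74 ± 0.13, adjusted p = 4.7e-18 and 8.04e-18). SERPINH1 was likewise higher, at 68.9 ± 3.5 CPM against 10.3 ± 1.2 CPM in treated cells (2.74 ± 0.08, adjusted p = 6.96e-16). Of the 21 heat-inducible genes 4 were higher and 14 lower in treated MALME-3M, and 3 higher and 13 lower in untreated MALME-3M, against 35.4% of all genes higher and 36.4% lower in treated and 34.5% higher and 37.2% lower in untreated cells.

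The mean course of the tested heat shock genes was computed over all 12 libraries after centring each gene within its line. Of all other tested genes, the 5 with the closest course were AHCY (Pearson r = 0.964), DCAF13 (0.958), MRPL50 (0.952), HNRNPA1 (0.952) and VARS (0.951). These coefficients describe 12 libraries that fall into 2 lines and 2 treatments and share their depth and scaling. AHCY encodes adenosylhomocysteinase and VARS the valine tRNA ligase. Their log2 fold changes with IFN-γ were -0.17 in MALME-3M and -0.19 in SK-MEL-5 for AHCY, and -0.15 and -0.17 for VARS.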

How the data were processed

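Total RNA libraries (Pico V3 kit, paired reads, per the labels' protocols) came from triplicate wells, so p-values measure the spread between libraries, which may be technical. The authors deposited whole-number read counts per gene and, per the file headers, estimated counts and TPM per transcript; 1 assembled transcript took 46.6% to 57.7% of the TPM, which were therefore rescaled here to sum to 1000000 over the transcripts tied to genes and used only to set levels of genes side by side. Tools named in the submitters' processing notes are cutadapt, STAR, SAMtools, kallisto and HTSeq, with the build hg38; neither annotation nor strand setting is given in the sources used here. The 5 summary lines stayed out; ambiguous reads were 4.19% to 4.54% of gene counts. Replicates differed by more than sampling noise (chi-square 5.93 to 17.4 per gene).

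The test was edgeR 4.0.16 (R 4.3.3; filterByExpr, minimum count 10; TMM; 1 mean per group over 12 libraries; 8 residual degrees of freedom; quasi-likelihood test; Benjamini-Hochberg over 15810 genes). SE is the log2 fold change over the square root of F. CPM use TMM-scaled totals. Estimated counts were rounded and summed by GENCODE 29 (160246 of 361686 transcripts tied). The fit was tested on simulated data. Alternatives were upper-quartile and DESeq2 1.42.0 scaling and test, no filter, 2-group fits, transcript estimates and leaving out each library. Members and lists were chosen with earlier results of these data known. Beyond the 10 genes, up to 4 called genes per list, by size of change, were named, and the 5 most alike over libraries.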

Additional observations from a re-analysis of the deposited data

Results flagged for a closer look

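None of the 9 tested heat shock genes met a rule for a closer look. In the neighbouring lists 6 genes changed differently with IFN-γ in the 2 lines. The test was edgeR's, of the difference of log2 fold changes, MALME-3M minus SK-MEL-5. It called 4.46% of all genes (2.67% higher, 1.79% lower). The 6 were 5 of 14 immediate early genes and 1 of 22 J-domain genes, and the other chaperone lists held 0. ATF3, a stress-induced transcription factor, differed by 1.46 ± 0.24 (adjusted p = 0.000787), with a rise of 1.84 in MALME-3M and of 0.38 in SK-MEL-5. It was scarce in MALME-3M, at 2.90 ± 0.32 CPM in treated and 0.802 ± 0.213 CPM in untreated cells (SD, n = 3). KLF4 differed by 1.12 ± 0.22 (adjusted p = 0.00489), JUN by 0.61 ± 0.16 (adjusted p = 0.0355) and JUNB by 0.58 ± 0.14 (adjusted p = 0.0187). KLF6 differed by 0.37 ± 0.07 (adjusted p = 0.00276), rising by 0.20 in MALME-3M and falling by 0.17 in SK-MEL-5, but on transcript estimates the SK-MEL-5 value was 0.03 and not called (adjusted p = 0.921). The J-domain gene DNAJB12 differed by 0.39 ± 0.10 (adjusted p = 0.0328) and averaged 68.6 ± 7.0 CPM in treated and 56.7 ± 2.3 CPM in untreated MALME-3M, against 32.4 ± 1.5 CPM in treated and 35.1 ± 1.6 CPM in untreated SK-MEL-5.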

How the results depend on the processing

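No paired analysis was possible because the labels carry no replicate numbers. Over all alternatives and comparisons the heat shock genes gave 776 values on the same side of the threshold, 12 newly called and 18 no longer called. No called value changed sign, while 31 values that were not called did. With transcript estimates, 0 heat shock genes were called lower in SK-MEL-5 and 0 higher in MALME-3M with IFN-γ, and 2 (HSPA1A and HSPE1) were higher in MALME-3M than in SK-MEL-5, both treated and untreated; fewer genes were called in all, 942 of 13497 in MALME-3M and 572 in SK-MEL-5. Leaving out 1 library at a time gave 3 to 5 genes called lower in MALME-3M (5 without treated library 3), 0 to 1 called higher in MALME-3M, and 3 to 5 called lower in SK-MEL-5; between the lines 1 was called higher and 7 lower each time. Without a filter on low counts, 1 gene, HSP90AA1, was called in the difference of the responses, where 569 of 34075 genes were called higher and 412 lower. Among the genes named beside them, 3 changed sign with transcript estimates: KLF6 in SK-MEL-5 (0.029), CCT7 (0.0177) and TCP1 (0.0205) in MALME-3M. The cause was not tested. Summing HSPE1 with HSPE1-MOB4 on transcript estimates, chosen after seeing the data as were the transcript sums of HSPA1A and HSPA1B, gave -0.18 in MALME-3M and -0.30 in SK-MEL-5, neither called. Gene counts of HSPE1 were too few to test.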
